A study of Bos taurus with 9 samples.

Results

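The expression of 10 liver genes of bile acid synthesis and transport was examined in lactating Holstein cows. They were the synthesis enzymes *CYP7A1*, *CYP8B1*, *CYP27A1* and *CYP7B1*, the activating enzyme *SLC27A5*, the transporters *SLC10A1*, *ABCB11* and *ABCB4*, and the nuclear receptors *NR1H4* and *NR0B2*. The genes were chosen by name as rows of the table of raw read counts, and they are 10 of the 28786 genes listed, of which 21008 had at least 1 count. All 9 libraries came from liver poly(A) RNA, 1 library per cow, with 3 cows in each of 3 groups. The HS group was under heat stress, the TN group stayed in thermoneutrality, and the PF group was also kept in thermoneutrality but pair-fed, which means that its feed was held to the intake of the heat-stressed cows. All cows were first acclimated to thermoneutrality, and their ages are not given in the sources used here. Within a group, cows 1, 2 and 3 below are the replicate numbers of the labels.

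Bile acids are made from cholesterol in hepatocytes, conjugated to taurine or glycine, and pumped into bile, from which most return to the liver after they have helped to absorb fat in the gut. The classic route of synthesis starts with *CYP7A1*, and the alternative route starts with *CYP27A1*. Bile acids in the hepatocyte activate the receptor *NR1H4* (FXR), which is known to induce the repressor *NR0B2* (SHP) and the export pump *ABCB11*, and *NR0B2* is known to lower the transcription of *CYP7A1* and *CYP8B1*. Reduced feed intake accompanies heat stress in dairy cows. The comparison of HS with PF cows addresses what heat stress does at a matched intake, while that of PF with TN cows addresses reduced intake in thermoneutrality. The average days in milk given in the paper also differed between the groups, and the part of this in the results was not tested.

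The total per library ranged from 16874444 to 22557047 counts, and the 10 genes had between 247 counts (*NR0B2* in HS cow 2) and 19333 counts (*ABCB11* in HS cow 1) in a cow, so that none of their levels rests on a few reads. Levels are given as CPM, the counts scaled to a common library size after TMM normalization. TN cow 1 stood apart from the other libraries: its TMM factor was 1.35, where the others lay between 0.867 and 1.19, and its 10 hepatocyte markers summed to 18005 CPM, where the other 8 cows had 63829 to 139059 CPM. The highest of these markers by the mean of all 9 cows was *ALB*. The sum of the hepatocyte markers was 18005 to 83976 CPM in TN, 92232 to 125124 CPM in PF and 63829 to 139059 CPM in HS cows. Every PF cow was thus above every TN cow in this sum, and none of the 10 markers was at 0 in a group. The fitted log2 fold change was above 0 in 10 of them for PF against TN cows. It was above 0 in 9 for HS against TN and in 5 for HS against PF cows, with 0 at an unadjusted edgeR p under 0.05. Of the other 10-gene lists, cholangiocyte markers summed to 67.5 to 169 CPM in TN, 69.5 to 148 CPM in PF and 35.3 to 171 CPM in HS cows (*MUC1* at 0 in all HS cows), Kupffer cell and leukocyte markers to 344 to 632, 503 to 707 and 609 to 957 CPM, and endothelial and stellate cell markers to 521 to 846, 533 to 795 and 484 to 920.3 CPM. Pericentral hepatocyte markers summed to 2926 to 7437 CPM in TN, 5083 to 6734 CPM in PF and 2998 to 8386 CPM in HS cows, and the 9 periportal markers to 4157 to 7863, 5727 to 6622 and 4721 to 8281 CPM. Of these 6 lists, edgeR called 0 genes in any comparison, and DESeq2 called *MARCO* (higher) and *AXIN2* (lower) in HS against TN, *GLS2* (higher) in HS against PF and *CD14* (higher) in PF against TN cows, which were named after their values were seen. At an unadjusted p under 0.05 edgeR found, for HS against PF cows (5.32% of all genes), 5 of 10 Kupffer cell and leukocyte markers and 1 of 9 periportal markers, all higher in HS. For HS against TN cows (9.36% of all genes) it found 1 Kupffer cell and leukocyte marker higher, 1 pericentral marker higher and 3 lower, and 1 periportal marker lower. For PF against TN cows (6.88% of all genes) it found 1 Kupffer cell and leukocyte marker higher and 1 lower, and 2 pericentral, 2 periportal and 1 cholangiocyte marker lower. The 13 mitochondrially encoded protein genes took 13.6% to 22.2% in TN, 6.90% to 7.79% in PF and 3.84% to 5.68% of the counts in HS cows. Leaving these 13 genes out of the fit moved the log2 fold changes of the 10 bile acid genes little. The largest shift was 0.0025 for HS against TN, 0.012 for HS against PF and 0.015 for PF against TN cows. Apart from this effect on the scaling, the part of the differences in this paragraph in the results below was not tested. In bulk tissue, fewer cells of a type and less RNA per cell cannot be told apart.

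None of the 10 genes was a differentially expressed gene (DEG) in any comparison, where a DEG had an FDR under 0.1 over all genes tested and a fold change over 1.5. Between HS and TN cows edgeR called 0 of the 10, and 0.0892% of all genes tested. Between HS and PF cows it called 0 of the 10 and 0.0276% of all genes, and between PF and TN cows 0 of the 10 and 0% of all genes. DESeq2 on the same counts also called 0 of the 10 in each comparison, with 1.75%, 0.771% and 0.555% of all genes called in the same order. The lowest FDR among the 10 genes was 0.710 between HS and TN, 0.900 between HS and PF, and 0.708 between PF and TN cows (edgeR, Benjamini-Hochberg).

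At an unadjusted p under 0.05, edgeR found 0 of the 10 genes between HS and TN cows (9.36% of all genes), 1 between HS and PF cows (5.32% of all genes) and 1 between PF and TN cows (6.88% of all genes). The first was *ABCB11*, higher in HS than in PF cows, and the second was *CYP7A1*, lower in PF than in TN cows. The cows of the compared groups did not overlap in 0 of the 10 genes between HS and TN (16.1% of all genes), in 1 between HS and PF (10.6% of all genes) and in 2 between PF and TN (13.3% of all genes). The median log2 fold change of the 10 genes was -0.06 for HS against TN, -0.11 for HS against PF and -0.12 for PF against TN cows, and that of all genes tested was -0.01, 0.01 and -0.01. The fitted log2 fold change was above 0 in 3 and below 0 in 7 of the 10 genes for HS against TN cows, and above 0 in 4 and below 0 in 6 in each of the other comparisons. These comparisons share cows, so their values are set side by side and are not independent of each other.

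**Figure D1:**
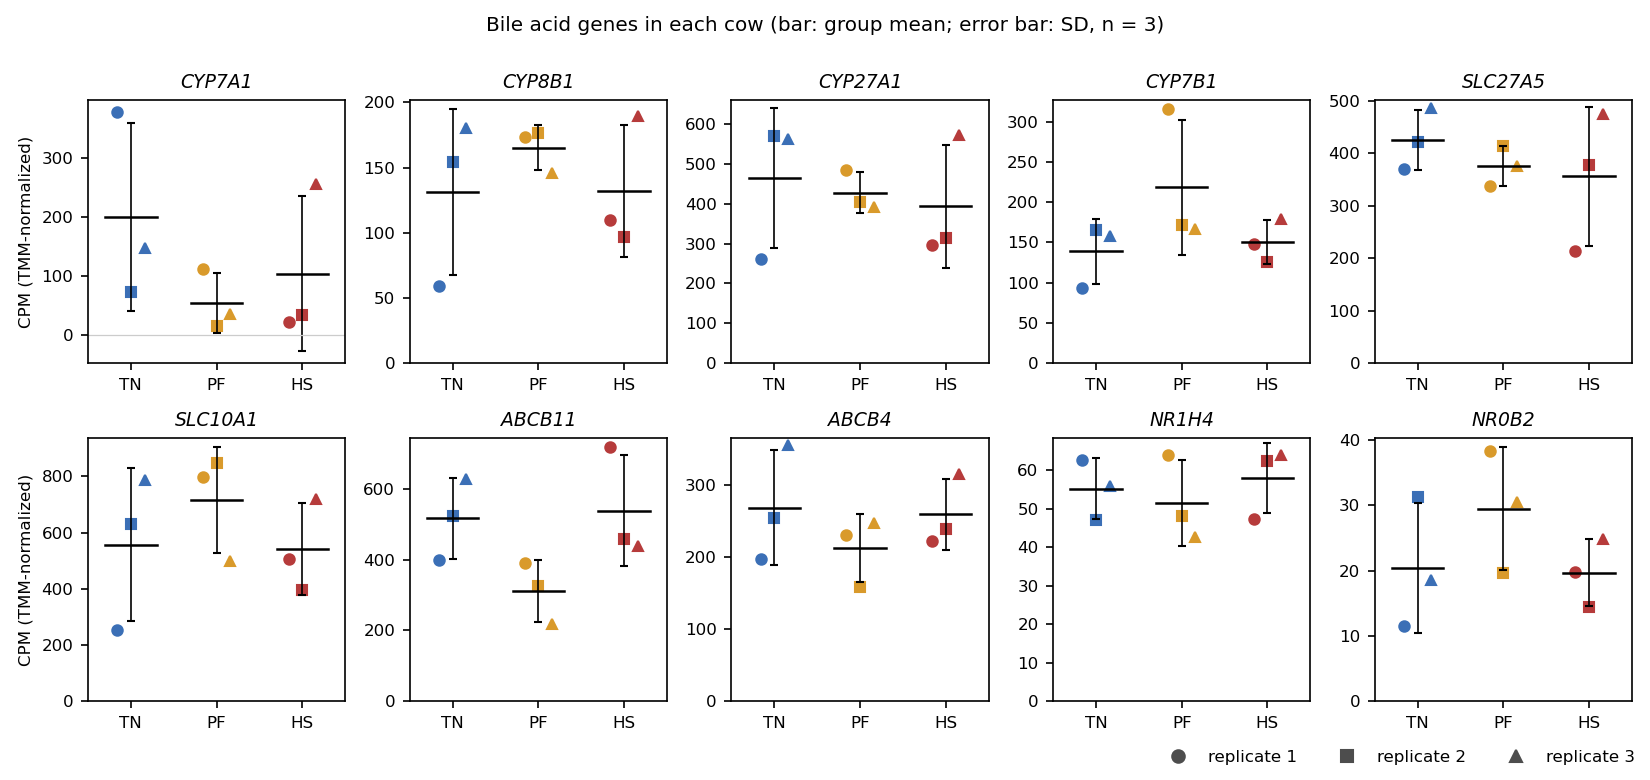
Level of each of the 10 genes in each cow, in TMM-normalized CPM on a linear axis, by group (TN blue, PF yellow, HS red). Marks are single cows by replicate number, the bar is the group mean and the error bar the SD (n = 3). The cows of 2 groups are fully separate only for *ABCB11*, with PF below both other groups, and for *CYP7B1*, with PF above TN, while *CYP7A1* runs from 15.6 CPM in PF cow 2 to 378 CPM in TN cow 1.

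*CYP7A1*, the rate-limiting enzyme of the classic route, was the most variable of the 10 genes. It had 378, 73.6 and 148 CPM in TN cows 1, 2 and 3, 112, 15.6 and 36.3 CPM in the PF cows, and 22.8, 34.9 and 256 CPM in the HS cows. Each group held 1 cow far above its other two: TN cow 1, PF cow 1 and HS cow 3. The group means were 199.9 ± 158 CPM in TN, 54.7 ± 50.8 CPM in PF and 104 ± 131 CPM in HS cows (SD, n = 3), and all 3 pairs of groups overlapped. Within a group, the highest cow had 5.13 times the level of the lowest in TN, 7.19 times in PF and 11.2 times in HS cows. On the log2 scale its SD within groups was 1.5, higher than in 99.7% of the 14151 genes tested in every comparison, whose median SD was 0.38.

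The fitted level of *CYP7A1* was 3.70-fold lower in PF than in TN cows, which is -1.89 on the log2 scale (SE 0.71, 95% confidence interval -3.44 to -0.34, edgeR unadjusted p = 0.0213, FDR 0.708), and DESeq2 gave an unadjusted p of 0.0664 for it. This difference was -1.02 without TN cow 1 and -2.96 without PF cow 1. The gene passed both DEG thresholds when no filter on low counts was applied (log2 fold change -1.87, FDR 0.0336, where the FDR reached 1.00 over the alternatives). The number of all genes called in this comparison also moved, from 0 in the main fit to between 0 and 136 over the alternatives. The number in the fit without that filter is not given here, so this call is not set against it. Between HS and TN cows its log2 fold change was -0.99 (SE 0.88, 95% confidence interval -2.96 to 0.99, edgeR FDR 0.710). That value was -2.84 without HS cow 3 and -0.09 without TN cow 1, each the highest cow of its group for this gene. Between HS and PF cows it was 0.91 (SE 0.86, interval -0.97 to 2.80, edgeR FDR 1.00), and it turned to -0.93 without HS cow 3. The order of the means was PF, HS, TN from the lowest, and neither pair of neighbours differed beyond the spread between cows.

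*CYP8B1*, which hydroxylates intermediates towards cholic acid and so sets the balance of the primary bile acids, was not a DEG in any comparison. It had 59.0, 154 and 180.4 CPM in TN cows 1, 2 and 3, 174, 177 and 146 CPM in the PF cows, and 109, 96.5 and 189.8 CPM in the HS cows. TN cow 1 was the lowest of the 9 cows and HS cow 3 the highest, and the PF cows lay close together, with the highest at 1.21 times the lowest. The log2 fold change was -0.01 (SE 0.42, 95% confidence interval -0.95 to 0.94) for HS against TN, -0.34 (SE 0.30, interval -0.99 to 0.31) for HS against PF, and 0.33 (SE 0.39, interval -0.52 to 1.18) for PF against TN cows, with edgeR FDRs from 0.825 to 1.00. The sign of the first value changed under several alternatives, and HS and TN cows could not be ordered for this gene.

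*CYP27A1*, the mitochondrial enzyme that opens the alternative route and oxidizes the sterol side chain, had 261, 569.6 and 562 CPM in the TN cows, 486, 405 and 393 CPM in the PF cows, and 295, 313 and 572 CPM in the HS cows. The PF cows again lay within a narrow range, while TN cow 1 and HS cows 1 and 2 were low and TN cows 2 and 3 and HS cow 3 were high. The order of means was HS (394 ± 155 CPM), PF (428 ± 50.7 CPM) and TN (464 ± 176 CPM; SD, n = 3), with overlap between every pair of groups. Its log2 fold changes were -0.26 (SE 0.41) for HS against TN, -0.13 (SE 0.32) for HS against PF and -0.12 (SE 0.37) for PF against TN cows, with edgeR FDRs of 0.843, 1.00 and 0.936.

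*CYP7B1*, the oxysterol hydroxylase that follows *CYP27A1* in the alternative route, was among the 2 genes in which every PF cow lay apart from every TN cow. It had 92.8, 166 and 158 CPM in the TN cows, 315, 172 and 167 CPM in the PF cows, and 147, 126 and 179 CPM in the HS cows. All PF cows were above all TN cows, but the gap between PF cow 3 and TN cow 2 was small, and PF cow 1 alone stood far above the rest. The log2 fold change of PF against TN cows was 0.65 (SE 0.36, 95% confidence interval -0.15 to 1.45, edgeR unadjusted p = 0.102 and FDR 0.709), and it was 0.28 without PF cow 1. For HS against PF cows it was -0.54 (SE 0.31, interval -1.23 to 0.14, edgeR FDR 0.990), and for HS against TN cows 0.10 (SE 0.30, interval -0.57 to 0.76, edgeR FDR 0.926). *CYP7B1* was thus fitted higher, and *CYP7A1* lower, in PF than in TN cows, and neither was a DEG.

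*SLC27A5* encodes the bile acid-CoA ligase that activates bile acids before they are conjugated. It had 370.5, 421 and 485 CPM in the TN cows, 338, 413 and 376 CPM in the PF cows, and 214, 377 and 475 CPM in the HS cows. HS cow 1 was the lowest of the 9, and apart from it the cows lay between 338 and 485 CPM in all groups. The log2 fold change was -0.28 (SE 0.36, 95% confidence interval -1.10 to 0.53) for HS against TN, -0.09 (SE 0.32, interval -0.79 to 0.61) for HS against PF and -0.19 (SE 0.31, interval -0.87 to 0.49) for PF against TN cows, with edgeR FDRs from 0.796 to 1.00.

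Of the 3 transporters, *SLC10A1* (NTCP) takes conjugated bile acids up from the blood. Its levels were 255, 629 and 786 CPM in the TN cows, 797, 849 and 499.9 CPM in the PF cows, and 507, 398 and 720.3 CPM in the HS cows. TN cow 1 was again the lowest of the 9, PF cow 2 the highest, and every pair of groups overlapped. The means were 557 ± 273 CPM in TN, 715 ± 188 CPM in PF and 542 ± 164 CPM in HS cows (SD, n = 3). The log2 fold change was -0.05 (SE 0.45) for HS against TN, -0.41 (SE 0.33) for HS against PF and 0.36 (SE 0.44) for PF against TN cows, with edgeR FDRs of 0.973, 1.00 and 0.832, and the 95% confidence intervals were wide (-1.06 to 0.95, -1.14 to 0.32 and -0.60 to 1.31). With 1 cow left out in turn, the HS and PF difference lay between -0.67 and -0.23 and the PF and TN difference between 0.02 and 0.69.

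*ABCB11* (BSEP), the pump that exports bile acids into the canaliculus, had its lowest levels in the PF group. The levels were 389.9, 325 and 219 CPM in the PF cows, against 398, 522 and 629 CPM in the TN cows and 718, 459 and 438 CPM in the HS cows. Every PF cow was below every cow of both other groups, although PF cow 1 and TN cow 1 lay next to each other, and the TN and HS cows overlapped. The group means were 311 ± 86.5 CPM in PF, 516 ± 116 CPM in TN and 538 ± 156 CPM in HS cows (SD, n = 3).

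The fitted level of *ABCB11* in HS cows was 1.72 times that in PF cows, or 0.78 on the log2 scale (SE 0.32, 95% confidence interval 0.07 to 1.49, unadjusted p = 0.0343, edgeR), with an FDR of 0.900. For PF against TN cows the log2 fold change was -0.74 (SE 0.35, interval -1.51 to 0.04, edgeR unadjusted p = 0.0596 and FDR 0.709), and for HS against TN cows it was 0.04 (SE 0.35, interval -0.76 to 0.83, edgeR FDR 0.976). With 1 cow left out in turn, the HS and PF difference lay between 0.51 and 0.98 and the PF and TN difference between -0.93 and -0.53, so their directions did not depend on a single cow. DESeq2 gave unadjusted p-values of 0.00819 between HS and PF and 0.0164 between PF and TN cows, with FDRs of 0.388 and 0.482. Both comparisons use the same 3 PF cows.

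*ABCB4*, the canalicular floppase that supplies phosphatidylcholine to bile, had 198, 254 and 356 CPM in the TN cows, 232, 159 and 248 CPM in the PF cows, and 223, 240.0 and 316 CPM in the HS cows. PF cow 2 was the lowest and TN cow 3 the highest, and all groups overlapped. Its mean was also lowest in the PF group (213 ± 47.2 CPM, against 269 ± 80.1 CPM in TN and 259.6 ± 49.7 CPM in HS cows; SD, n = 3), and the log2 fold changes were -0.34 (SE 0.34) for PF against TN, 0.28 (SE 0.28) for HS against PF and -0.07 (SE 0.32) for HS against TN cows and edgeR FDRs from 0.795 to 1.00.

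*NR1H4*, the bile acid receptor itself, varied least of the 10 genes. It had 62.8, 47.1 and 56.1 CPM in the TN cows, 64.0, 48.1 and 42.6 CPM in the PF cows, and 47.5, 62.3 and 64.0 CPM in the HS cows. The highest of the 9 cows had 1.5 times the level of the lowest, and each group held cows at both ends of this range. For HS against TN cows the log2 fold change was 0.03 (SE 0.23), and its 95% confidence interval, 0.714-fold to 1.47-fold, did not reach a change of 1.5-fold. For HS against PF cows it was 0.16 (SE 0.24, interval -0.38 to 0.69) and for PF against TN cows -0.11 (SE 0.26, interval -0.69 to 0.47), with edgeR FDRs of 1.00 and 0.919.

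*NR0B2*, the repressor induced by *NR1H4*, had 247 to 652 counts per cow. It had 11.5, 31.2 and 18.5 CPM in the TN cows, 38.3, 19.6 and 30.4 CPM in the PF cows, and 19.8, 14.5 and 24.8 CPM in the HS cows. PF cow 1 was the highest and TN cow 1 the lowest, and PF cow 2 lay within the range of both other groups. The log2 fold change was -0.59 (SE 0.29, 95% confidence interval -1.24 to 0.06, edgeR unadjusted p = 0.0703 and FDR 0.949) for HS against PF, 0.53 (SE 0.37, interval -0.28 to 1.33, FDR 0.733) for PF against TN and -0.07 (SE 0.35, interval -0.85 to 0.71, FDR 0.958) for HS against TN cows.

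**Figure D2:**
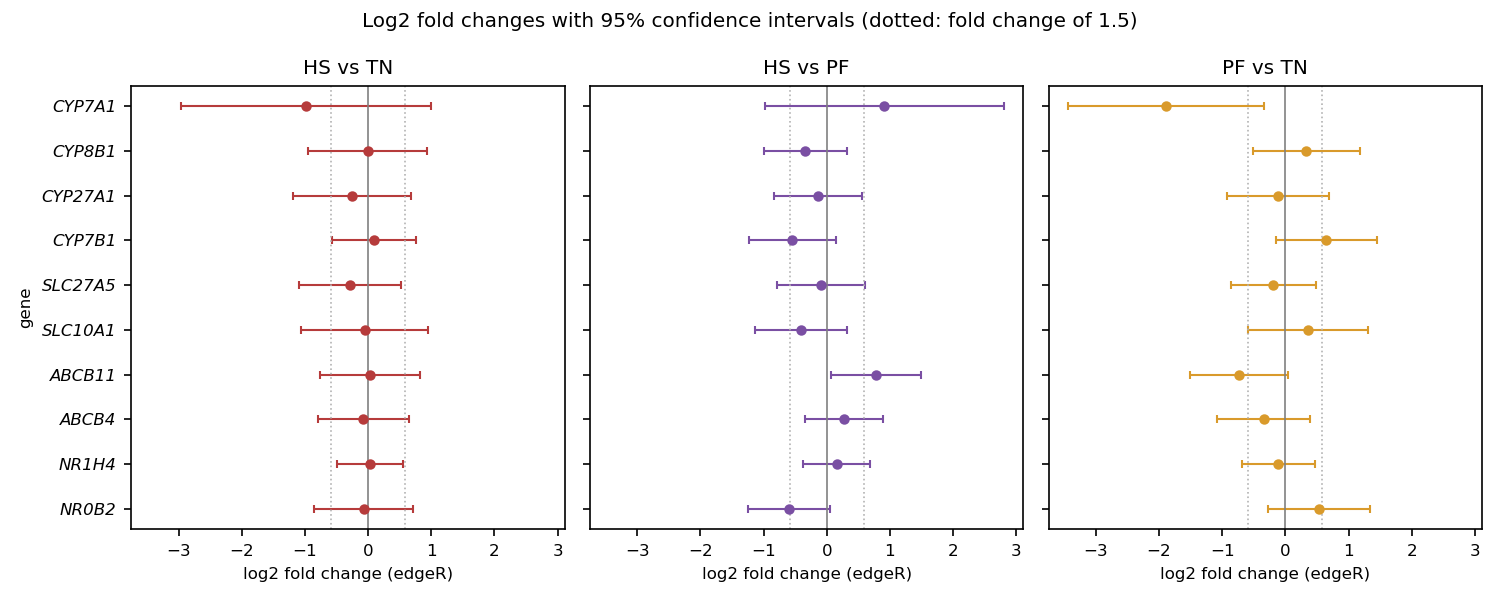
Log2 fold change of each gene from edgeR (points) with its 95% confidence interval (bars), for HS vs TN, HS vs PF and PF vs TN cows, and dotted lines at a fold change of 1.5. All 10 intervals for HS vs TN include 0, and the interval lies apart from 0 only for *ABCB11* in HS vs PF (0.07 to 1.49) and for *CYP7A1* in PF vs TN (-3.44 to -0.34), both before adjustment over all genes.

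The order of the group means differed among the genes. It was PF, HS, TN from the lowest for *CYP7A1* and *ABCB4*, TN, HS, PF for *CYP8B1* and *CYP7B1*, HS, PF, TN for *CYP27A1* and *SLC27A5*, HS, TN, PF for *SLC10A1* and *NR0B2*, and PF, TN, HS for *ABCB11* and *NR1H4*. Many of these places rest on near ties, since neighbouring means differed by 1.01-fold for *CYP8B1*, 1.03-fold for *SLC10A1*, 1.04-fold for *NR0B2*, *ABCB4* and *ABCB11*, and 1.05-fold for *NR1H4*. For *CYP8B1* the fitted sign for HS against TN cows was the opposite of that of the means. Neighbours in these orders were separate without overlap only for PF and TN cows in *ABCB11*.

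The genes also differed in how much cows of the same group varied. After *CYP7A1*, the SD within groups on the log2 scale was highest for *SLC10A1* (0.60), *CYP8B1* (0.59) and *NR0B2* (0.54), followed by *CYP27A1* (0.49) and *CYP7B1* (0.43). *ABCB11* (0.39), *SLC27A5* (0.37), *ABCB4* (0.35) and *NR1H4* (0.25) lay near or below the median of all genes, with percentiles of 50.6, 47.1, 42.9 and 18.5. The highest of the 9 cows had 24.2 times the level of the lowest for *CYP7A1* and 1.5 to 3.40 times for the other 9 genes.

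**Figure D3:**
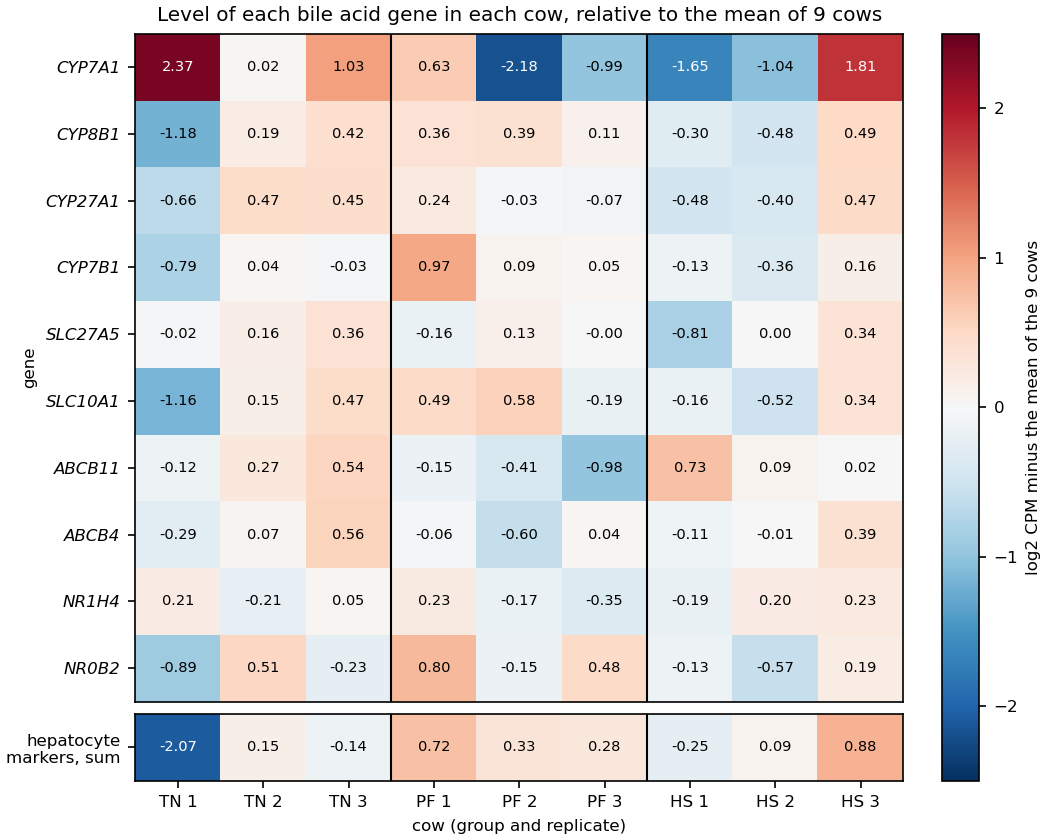
Level of each gene in each cow as log2 CPM minus the mean of the 9 cows (red above, blue below, values printed in the cells), with the summed hepatocyte markers on the same scale in the bottom row and lines between the groups. TN cow 1 is lowest in 5 genes and in the hepatocyte markers (-2.07) yet highest in *CYP7A1* (2.37), and HS cow 3 is above the mean in all 10 genes and highest in the hepatocyte markers (0.88).

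Single cows stood out across several of the genes. TN cow 1 was the lowest of the 3 TN cows in 8 of the 10 genes and the lowest of all 9 cows in 5, namely *CYP8B1*, *CYP27A1*, *CYP7B1*, *SLC10A1* and *NR0B2*, but it was the highest of all 9 in *CYP7A1*. The hepatocyte markers were also lowest in this cow, as given above. HS cow 3 was the highest of the HS cows in 9 of the 10 genes, all but *ABCB11*, and its hepatocyte markers were the highest of the 9 cows. Its levels lay 0.02 to 1.81 above the mean of the 9 cows on the log2 scale. In the PF group cow 1 was the highest in 6 genes and cow 3 the lowest in 6. The part of the hepatocyte content of a library in these levels was not tested.

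The relations between genes with a known regulatory or functional link were read across the 9 cows for 6 pairs, on log2 CPM and with exact two-sided permutation tests. *NR0B2* and *CYP8B1* had Pearson's r = 0.722 (exact p = 0.0254, adjusted over the 6 pairs 0.152) and Spearman's rho = 0.383 (exact p = 0.312, adjusted 0.948). Without the cows farthest from the median of *NR0B2*, TN cow 1 and PF cow 1, r was 0.443 (exact p = 0.308). It was 0.489 without TN cow 1 alone and 0.726 without PF cow 1 alone, so the larger r across the 9 cows rests on TN cow 1. After the group means were removed r was 0.661 (exact p = 0.194).

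*CYP7A1* and *CYP8B1*, the repressed targets of *NR0B2*, had r = -0.174 (exact p = 0.669) and rho = 0.133 (exact p = 0.744). Without TN cow 1 and PF cow 2, the highest and the lowest cow for *CYP7A1*, r was 0.876 and rho 0.964, and without TN cow 1 alone r was 0.557. No p is given for these values, since the cows were left out for their level of *CYP7A1*. The sign of r thus changed without TN cow 1, which had the most *CYP7A1* and the least *CYP8B1* of the 9 cows. The sign of rho did not, with 0.133 across the 9 cows and 0.619 without TN cow 1. With group means removed r was 0.0153 (exact p = 0.968).

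The other 4 pairs had r between -0.293 and 0.215, and after adjustment over the 6 pairs none of the 6 passed a p of 0.05 across the 9 cows. *NR1H4* and *NR0B2* had r = -0.293 (exact p = 0.438) and rho = -0.183 (exact p = 0.644), and *NR0B2* and *CYP7A1* had r = -0.121 (exact p = 0.753) and rho = -0.0833 (exact p = 0.843). *NR1H4* and *ABCB11* had r = 0.215 (exact p = 0.586) and rho = -0.0333 (exact p = 0.948), and the transporters *SLC10A1* and *ABCB11* had r = 0.0619 (exact p = 0.870) and rho = -0.117 (exact p = 0.776). The adjusted p was 0.870 for each of these r and 0.948 for each rho. Without the 2 cows farthest from the median of the first gene, r was 0.0863, 0.239, -0.301 and 0.0420 in the same order, and within groups it was -0.168, 0.138, -0.0394 and 0.582.

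Of 49 other genes of the pathway in 3 lists, 48 were in the count table. The lists hold 15 genes of synthesis and conjugation, 16 of transport and 18 of regulation, and 43 were tested between HS and TN, 42 between HS and PF, and 43 between PF and TN cows. By edgeR 0 were DEGs in each comparison (0.0892%, 0.0276% and 0% of all genes). At an unadjusted p under 0.05 there were 4 between HS and TN (3 higher and 1 lower in HS), 7 between HS and PF (1 higher and 6 lower in HS) and 5 between PF and TN cows (4 higher and 1 lower in PF), with 9.36%, 5.32% and 6.88% of all genes. Groups did not overlap in 5 of 43, 9 of 42 and 9 of 43, with 16.1%, 10.6% and 13.3% of all genes. The median log2 fold changes of these genes were 0.10, 0.02 and 0.18. DESeq2 called 1 of them between HS and TN (*FABP1*), 1 between HS and PF (*AKR1C4*) and 0 between PF and TN cows.

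Among the genes of synthesis and conjugation, 4 of 13 tested had an unadjusted edgeR p under 0.05 for HS against PF cows (5.32% of all genes). All 4 were lower in HS, and this count was singled out after the values were seen. In the same list there was 1 of 13 for HS against TN (9.36% of all genes) and 1 of 14 for PF against TN cows (6.88% of all genes). *AKR1C4*, an aldo-keto reductase of steroids, had 392, 632 and 757 CPM in the TN cows, 1097, 1712 and 834 CPM in the PF cows, and 398, 536 and 750.3 CPM in the HS cows. Every PF cow was above every other cow, and the log2 fold change was -1.12 (SE 0.36, edgeR FDR 0.668) for HS against PF and 1.03 (SE 0.40, FDR 0.708) for PF against TN cows. For HS against PF cows its DESeq2 FDR was 0.0764, with a range up to 1.00 over the alternatives. It belongs to a family of near-identical genes, so its reads may be split among copies.

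The peroxisomal thioesterase *ACOT8* had 24.1, 35.5 and 49.9 CPM in the TN cows, 49.6, 45.0 and 56.1 CPM in the PF cows, and 28.5, 21.0 and 36.6 CPM in the HS cows. All HS cows were below all PF cows (log2 fold change -0.82, SE 0.25, edgeR FDR 0.625). *CYP39A1*, an oxysterol hydroxylase, had 55.3, 30.2 and 28.2 CPM in the PF cows and 12.5, 20.2 and 28.1 CPM in the HS cows, a difference of -0.92 on the log2 scale (SE 0.35, edgeR FDR 0.799) in which PF cow 3 and HS cow 3 nearly met. The 4th was *AKR1D1*, a reductase of bile acid intermediates, which falls outside the rule for naming genes and was chosen after its values were seen (log2 fold change -0.67, SE 0.29, edgeR FDR 0.908).

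*BAAT*, which joins bile acids to taurine and glycine, was measured at only 9 to 55 counts per cow. It had 0.527, 0.867 and 0.656 CPM in the TN cows, 0.529, 1.40 and 1.02 CPM in the PF cows, and 2.04, 2.17 and 1.89 CPM in the HS cows. Every HS cow was above every other cow, and the log2 fold change for HS against TN cows was 1.55 (SE 0.52, edgeR FDR 0.456).

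Among the transport genes, *FABP1*, a fatty acid binding protein that also binds bile acids, had 1030.4, 2508 and 2978 CPM in the TN cows, 1454, 4155 and 907 CPM in the PF cows, and 749.6, 728 and 1308 CPM in the HS cows. HS cow 3 lay above TN cow 1 and PF cow 3, so the groups overlapped, and the log2 fold change for HS against TN cows was -1.24 (SE 0.50, edgeR FDR 0.4995). Its DESeq2 FDR was 0.0922, with FDRs up to 0.795 over the alternatives. *ABCG8*, a part of the sterol exporter of the canaliculus, had 20.2, 25.9 and 19.3 CPM in the PF cows, 23.9, 36.7 and 70.2 CPM in the TN cows, and 51.3, 29.7 and 28.6 CPM in the HS cows. Its log2 fold change was 0.74 (SE 0.27, edgeR FDR 0.786) for HS against PF, where the cows did not overlap, and -1.004 (SE 0.35, edgeR FDR 0.697) for PF against TN cows, where they did.

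*ABCG8* thus had its lowest mean in the PF cows, as *ABCB11* did. *ATP8B1*, a flippase of the canalicular membrane, had 15.9, 16.9 and 17.5 CPM in the TN cows, 21.8, 28.3 and 17.6 CPM in the PF cows, and 27.1, 26.7 and 19.3 CPM in the HS cows. All HS and all PF cows were above all TN cows, by 0.51 (SE 0.21, edgeR FDR 0.507) and 0.42 (SE 0.26, edgeR FDR 0.721) on the log2 scale. *TMEM30A*, a flippase subunit outside the rule and chosen after its values were seen, differed by 0.83 on the log2 scale (SE 0.33, edgeR FDR 0.708) for PF against TN cows.

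Among the genes of regulation, the hormone *FGF21*, which the liver makes in fasting, had 0, 3 and 54 counts in the TN cows, 24, 510 and 201 counts in the PF cows, and 26, 44 and 0 counts in the HS cows. PF cows 2 and 3 were above all others, PF cow 1 was below TN cow 3 and HS cow 2 in CPM, and a count of 0 allows up to 3 counts. The log2 fold change was 3.59 (SE 1.22, edgeR FDR 0.697) for PF against TN and -3.49 (SE 1.06, edgeR FDR 0.625) for HS against PF cows. Without TN cow 3, which leaves 0 and 3 counts in the TN group, the first value was 7.27, and without PF cow 2 the values were 2.38 and -2.30. *FGF21* was a DEG in both comparisons when no filter on low counts was applied (FDR 0.0030 and 0.0133, where the FDR reached 1.00 and 0.919 over the alternatives). Over the alternatives, 0 to 136 of all genes were called for PF against TN and 3 to 122 for HS against PF cows. The numbers in the fits without that filter are not given here, so these calls of *FGF21* are not set against them. *KLB*, which encodes the coreceptor for this hormone, had 27.3, 24.5 and 27.2 CPM in the TN cows, 55.2, 51.8 and 28.6 CPM in the PF cows, and 30.9, 44.2 and 46.2 CPM in the HS cows. All PF and HS cows were above all TN cows, and their log2 differences from TN were 0.77 (SE 0.28, edgeR FDR 0.705) and 0.59 (SE 0.22, edgeR FDR 0.485).

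**Figure D4:**
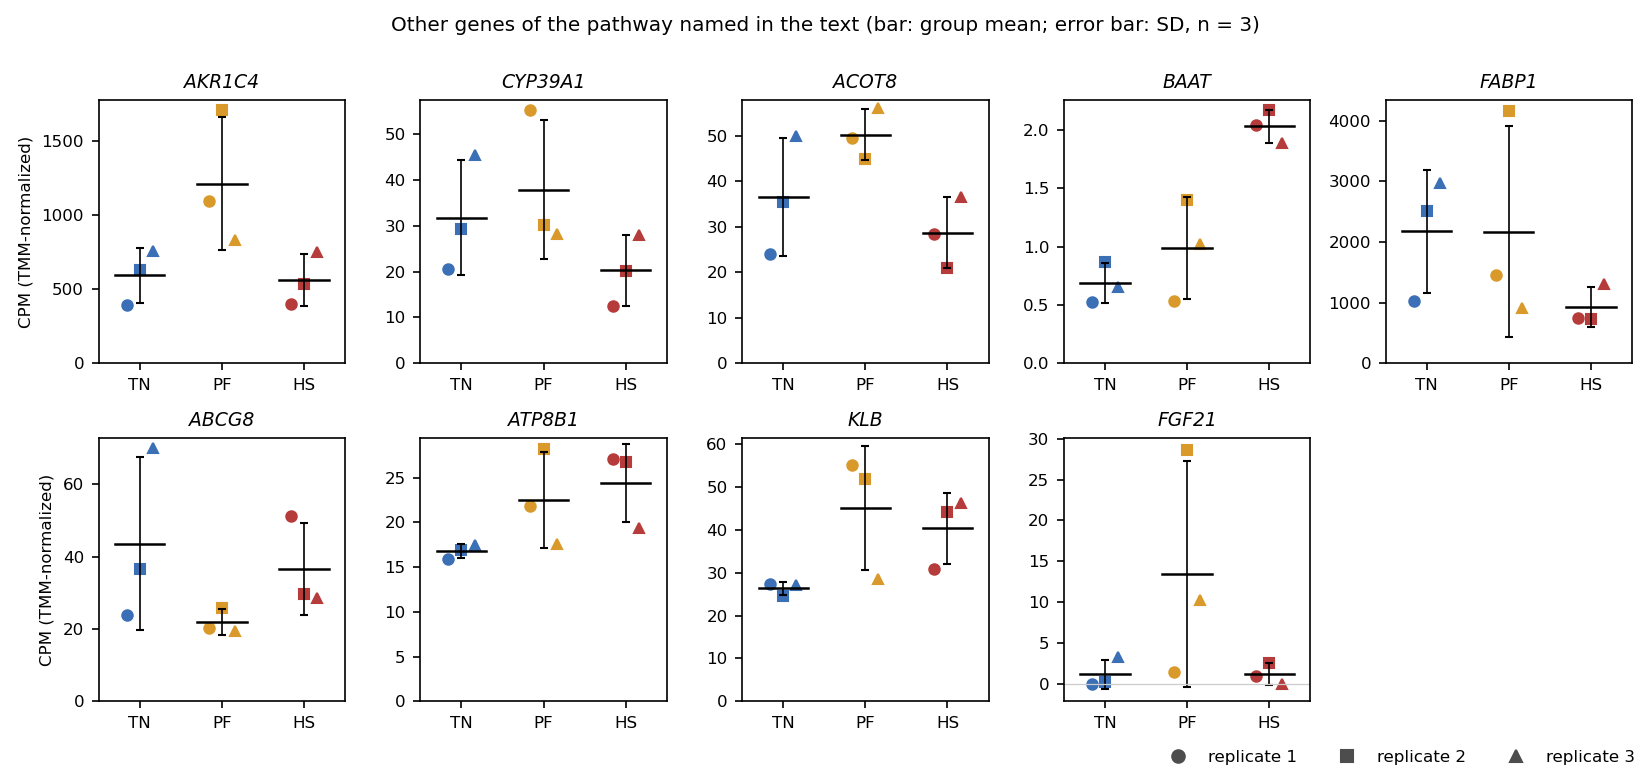
Level of 9 other genes of the pathway in each cow, in TMM-normalized CPM on a linear axis, by group, with single cows as marks, the group mean as a bar and the SD as an error bar (n = 3). *BAAT* is highest in the 3 HS cows at 1.89 to 2.17 CPM, *AKR1C4* is highest in the 3 PF cows at 834 to 1712 CPM, and *FGF21* is above 10 CPM only in PF cows 2 and 3.

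Some of the 48 genes could not be tested. *CYP46A1* and *FGF19*, the gut hormone that represses *CYP7A1*, had 0 counts in all 9 cows, which allows up to 3 counts in a cow, and *SLC10A2* and *VDR* had at most 16. *CH25H*, with at most 13 counts, was tested only for PF against TN cows and *SLC51A*, with at most 46, only for HS against TN cows. These genes were named after their values were seen. In the RefSeq annotation of the later assembly ARS-UCD2.0, *CYP8B1* overlaps *LOC112443512* and *SLC10A1* overlaps *LOC104973229*, which had 28 to 68 and 21 to 210 counts per cow. *NR1H4* overlaps a long non-coding gene and *CYP7A1* a tRNA gene that are not in the count table. Since the strand setting of the counting is not given, reads of such pairs cannot be told apart.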

How the data were processed

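Liver RNA of 9 cows (3 TN, 3 PF and 3 HS; separate animals, 1 biopsy and 1 library each) was sequenced by the authors as paired poly(A) libraries. The deposited values are raw read counts per gene, which the authors made with fastp 0.23.2, STAR 2.7.9a on ARS-UCD1.2 and featureCounts 2.0.3; annotation release, strand setting and handling of multi-mapped reads are not given in the sources used here. All 9 columns were used and 0 left out. Totals were 16874444 to 22557047 counts. No molecular identifiers were used, so counts include PCR duplicates. Replicates of a group differed by far more than sampling noise (chi-square per gene 56.9 to 236), so none was counted as a duplicate.

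For each comparison the 6 libraries of its groups were fitted over all genes with edgeR 4.0.16 in R 4.3.3 (TMM, filterByExpr, quasi-likelihood F test, Benjamini-Hochberg adjustment). Genes called as DEGs passed the study's thresholds, an FDR of 0.1 and a 1.5-fold change. SEs and 95% confidence intervals come from this fit and cover the spread between cows. Log2 CPM had an offset of 0.5. Correlations used exact permutation tests (SciPy 1.17.1, Python 3.11.15). The HS against TN fit was also run on simulated counts with known changes. All genes there had the same modelled spread between cows, so it does not cover genes that vary as widely as *CYP7A1*. Alternatives were DESeq2 1.42.0 (the study's tool), RLE size factors, the 13 mitochondrial genes left out, a block for the replicate number, a single fit of all 9 libraries, a minimum of 10 counts in each library, no filter on low counts, a stricter FDR of 0.05, and leaving out each cow in turn.

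The 10 genes and all gene lists were chosen with earlier results of these data known. Of the other pathway genes, those named were DEGs by edgeR, had an unadjusted p under 0.05 without overlap of the groups, or had the 3 smallest p in a comparison; of marker lists, only the highest gene, any DEG and a gene at 0. Of 58 symbols, 57 were found in RefSeq's ARS-UCD2.0 gene table, used only for names and overlaps. It gives no transcript lengths, so levels are not compared between genes, and no positions are given because the builds differ.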

Additional observations from a re-analysis of the deposited data

How the results depend on the processing

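With 3 cows in a group, the spread between cows set the width of the intervals, and each of the 10 genes had at least 247 counts in each cow. Of the 10 genes, 0 were called in each comparison under all alternatives, except that without the filter on low counts edgeR called 1 for PF vs TN (*CYP7A1*, log2 fold change -1.87). The number with an unadjusted p under 0.05 was 0 to 1 for HS vs TN, 0 to 3 for HS vs PF and 0 to 2 for PF vs TN over the alternatives. In the main fit it was 0, 1 and 1, with 9.36%, 5.32% and 6.88% of all genes. The 3 for HS vs PF were *ABCB11*, *NR0B2* and *CYP8B1* without HS cow 3. Shares of all genes under the alternatives are not given here, so these ranges are not set against a background. Of the other pathway genes, DESeq2 called 1 for HS vs TN (*FABP1*) and 1 for HS vs PF (*AKR1C4*), and without the filter on low counts edgeR called 1 for HS vs PF and 1 for PF vs TN (*FGF21* both times); the cause was not tested. Over all genes, where edgeR called 13, 4 and 0 DEGs for HS vs TN, HS vs PF and PF vs TN, the alternatives gave 0 to 270, 3 to 122 and 0 to 136. The numbers in the fits without the filter are not given here, so the calls of *CYP7A1* and *FGF21* are not set against them.

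The replicate number as a block called 0 of the 10 genes in each comparison and 33, 6 and 1 of all genes. With this block *CYP7A1* had a log2 fold change of -2.02 for PF vs TN (edgeR unadjusted p = 0.000127, FDR 0.372). Deviations of cows with the same number correlated at -0.226 to 0.257, and those of cows with different numbers at -0.327 to 0.326. Whether cows with the same number share more than the number was not tested.

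Of 390 log2 fold changes of the 10 genes under an alternative, 34 changed sign, most of them close to 0; the cause was not tested. For HS vs TN, *CYP8B1* was 0.0238 with DESeq2, 0.0168 with RLE size factors, 0.0065 without a filter, 0.0017 with all 9 libraries in 1 fit and 0.0668 with the replicate block, and with that block *SLC10A1* was 0.0349 and *NR0B2* 0.0153. With 1 cow left out in turn, HS vs TN ranged from -0.37 to 0.29 for *CYP8B1*, -0.39 to 0.27 for *SLC10A1*, -0.34 to 0.37 for *NR0B2*, -0.11 to 0.24 for *CYP7B1*, -0.22 to 0.19 for *ABCB11*, -0.24 to 0.17 for *ABCB4* and -0.0676 to 0.164 for *NR1H4*. HS vs PF ranged from -0.50 to 0.0322 for *CYP27A1*, -0.35 to 0.16 for *SLC27A5* and -0.93 to 2.01 for *CYP7A1*, and PF vs TN from -0.0089 to 0.63 for *CYP8B1*, -0.30 to 0.0128 for *NR1H4* and -0.40 to 0.0506 for *CYP27A1*. Of the correlations, r changed sign with group means removed for *NR0B2* and *CYP7A1* (0.138), *NR1H4* and *ABCB11* (-0.0394) and *CYP7A1* and *CYP8B1* (0.0153), and without the 2 farthest cows for *NR1H4* and *NR0B2* (0.0863), *NR0B2* and *CYP7A1* (0.239), *NR1H4* and *ABCB11* (-0.301) and *CYP7A1* and *CYP8B1* (0.876). With 1 cow left out, r ranged from -0.246 to 0.345 for *NR0B2* and *CYP7A1*, -0.338 to 0.481 for *NR1H4* and *ABCB11*, -0.372 to 0.557 for *CYP7A1* and *CYP8B1*, and -0.0695 to 0.2001 for *SLC10A1* and *ABCB11*.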
